A study of Mus musculus with 9 samples.

Results

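The 44 genes described here encode the machinery that copies DNA in S phase, from the proteins that license origins to the enzymes that make deoxynucleotides. They were taken by gene symbol from a table of expression values, and 44 of 44 were found among its 24346 genes. RNA sequencing was done on 9 libraries of mouse mammary tumour cell lines, 5 labelled Jak1 wild type and 4 labelled Jak1 knockout, each library being 1 line in 1 state. All lines came from FVB/N mice in which MMTV-neu, a mouse mammary tumour virus promoter driving the neu (Erbb2) oncogene in mammary epithelium, had induced tumours. Lines 45555, 47298 and 45566B were present in both states, with the words Wt and Cre in their titles, and all 6 of these libraries were grown with puromycin. Lines 33373 and 33377 (wild type, titled Mneu) and 46295 (knockout, titled D6) were present in 1 state only and had no puromycin. The sources used here do not give the ages of the mice, whether a line was 1 clone, or how the knockout of 46295 was made. JAK1 is a kinase that passes signals from cytokine receptors to STAT transcription factors, and the comparison asks how its loss goes with the expression of these genes.

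Replication starts at origins. The origin recognition complex (ORC), CDC6 and CDT1 load the ring of MCM2 to MCM7 onto DNA in G1, and geminin (Gmnn) blocks loading once S phase has begun. The kinase CDC7 with its activator DBF4 then turns the ring into an active helicase with CDC45 and the GINS complex, after which primase and the polymerases copy both strands on the PCNA clamp. Many of these genes are transcribed at the border of G1 and S phase by E2F factors, which are held back by the RB protein until D-type cyclins and their kinases release them. The summed RNA of such genes in a culture is therefore widely used as a readout of proliferation. In a bulk library, more cells in S phase and more RNA per such cell cannot be told apart.

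The promoters were searched for short letter strings, none of which was in all of them. RefSeq promoters (build GRCm38.p6) were matched for 36 of the 44 members, with 42 promoters in all, and the 250 bases before each start were searched on both strands. The 4 E2F letter strings TTTCCCGC, TTTGGCGC, TTTCGCGC and TTTGCCGC, some of which can overlap each other on opposite strands, were in 8 of the 42 (19.05%), against 1.86% of all 32851 promoters of the same length. Those 8 belonged to Orc1, Cdc6, Mcm5, Mcm6, Mcm7, Gins3, Pola1 and Rfc3. CCAAT was in 22 of the 42 (52.38%) against 33.85% of all promoters, and the GC box GGGCGG in 27 (64.29%) against 32.74%. The CHR letters TTTGAA and TTCGAA, found in many mitotic promoters, were in 8 (19.05%) against 17.15%. Mcm5 and Mcm6 are printed because they were the 2 members with more than 1 E2F match, a choice made after the matches were seen. Dbf4, Tk1 and Rpa1 are printed because they had the smallest p of the matched members in the comparison over the 3 paired lines. Capitals mark the E2F and CCAAT letters on either strand, and stretches that GENCODE annotates as exon, of the gene or of a neighbour, are left out.
Mcm5, chr8:75109259-75109508, plus strand: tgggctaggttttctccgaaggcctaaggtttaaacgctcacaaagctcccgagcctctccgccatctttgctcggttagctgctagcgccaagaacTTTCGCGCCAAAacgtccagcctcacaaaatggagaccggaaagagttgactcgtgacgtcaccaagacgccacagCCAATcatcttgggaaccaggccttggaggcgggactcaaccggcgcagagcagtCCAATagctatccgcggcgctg
Mcm6, chr1:128359706-128359955, minus strand: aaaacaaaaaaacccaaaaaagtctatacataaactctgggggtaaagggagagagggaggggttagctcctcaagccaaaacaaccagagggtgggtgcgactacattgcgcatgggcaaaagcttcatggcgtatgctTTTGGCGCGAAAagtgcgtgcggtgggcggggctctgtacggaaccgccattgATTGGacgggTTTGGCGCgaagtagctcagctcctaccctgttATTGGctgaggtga
Dbf4, chr5:8422717-8422849, minus strand: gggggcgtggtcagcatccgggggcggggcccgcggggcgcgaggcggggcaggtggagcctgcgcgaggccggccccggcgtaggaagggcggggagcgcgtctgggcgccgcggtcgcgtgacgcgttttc
Tk1, chr11:117826093-117826264, minus strand: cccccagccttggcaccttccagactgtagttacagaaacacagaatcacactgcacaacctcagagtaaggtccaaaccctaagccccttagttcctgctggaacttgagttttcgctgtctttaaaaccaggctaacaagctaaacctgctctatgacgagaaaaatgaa
Rpa1, chr11:75348384-75348432, minus strand: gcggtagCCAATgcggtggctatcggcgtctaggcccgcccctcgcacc

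In Mcm5 the E2F strings TTTCGCGC (plus strand, 153 to 146 bases before the start) and TTTGGCGC (minus strand, 149 to 142) overlap and form 1 run of capitals. Mcm6 has the same pair of strings in a mirrored arrangement, at 110 to 103 and 106 to 99 bases, and 1 more match at 47 to 40. Both also hold CCAAT, on the plus strand in Mcm5 and on the minus strand in Mcm6. Neither Dbf4 nor Tk1 holds the E2F or CCAAT letters in its 250 bases, and Rpa1 holds 1 CCAAT 42 to 38 bases before its start. The windows of Dbf4 and Rpa1 run into the first exons of Slc25a40 and Smyd4, which are transcribed away from them on the other strand. A match is a description of letters and not a measured binding site.

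The values are FPKM (fragment counts corrected for transcript length and library size), so levels can be compared between genes but the number of fragments is unknown. A library summed to between 567403 and 721751 FPKM, and depth relative to 45566B wild type, the deepest library, was 0.415 in 46295 and at most 0.763 in the others. Jak1 was lower with the knockout label in each pair (45555, 86.7 against 74.4 FPKM; 47298, 63.1 against 27.5; 45566B, 16.1 against 14.2). It stood at 22.97 FPKM in 46295, and at 19.4 and 54.6 in 33373 and 33377. Since the table has 1 value per gene, a loss of some exons would not show in it, and the labels are checked only weakly. Markers of the labelled cell type were nearly absent in 45555, and some of them, such as Epcam and Cdh1, were nearly absent in 47298 too. The 12 luminal epithelial markers summed to 10.57 FPKM in 45555 wild type and 12.68 in its knockout, with the adhesion molecule Epcam at 0.169 and 0.423. In 47298 these 12 summed to 117.2 and 490.8 FPKM, mostly Krt8, Krt18 and Krt7. Epcam was at 0.324 and 0.581 FPKM there, and Cdh1 at 0.210 and 0.277. The luminal sum was 168.1 in 33377, and between 3941 and 4842 in the libraries of 45566B, 33373 and 46295. The 12 fibroblast markers ran the other way, at 7315 and 5074 FPKM in 45555, 7957 and 720.9 in 47298, 3996 in 33377 and between 1.957 and 462.3 elsewhere. Endothelial markers summed to at most 6.63 FPKM and immune markers to at most 0.300, with Cd3e at 0 in all 9 libraries.

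All 44 genes were expressed. The lowest value was that of Orc1, the largest ORC subunit, at 0.757 FPKM in 47298 wild type. All 44 passed the filter used for the tests, which asked for a mean FPKM of 1 or more. Pcna, the sliding clamp, had the highest mean over the 9 libraries at 225 FPKM, and Orc1 the lowest at 3.805. The libraries differed widely in their level of the whole group. The mean of log2(FPKM + 1) over the 44 genes was 3.35 in 47298 wild type, 3.83 in 33373, 3.91 in 47298 knockout and 4.12 in 45555 wild type. It was 4.67 in 46295 knockout, 4.95 in 33377, 5.21 in 45566B knockout, 5.27 in 45566B wild type and 5.28 in 45555 knockout. Each step in this order compares single libraries, so none has a replicate spread, and the top 3 lie close together. Wild-type and knockout libraries are interleaved along it.

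**Figure D1:**
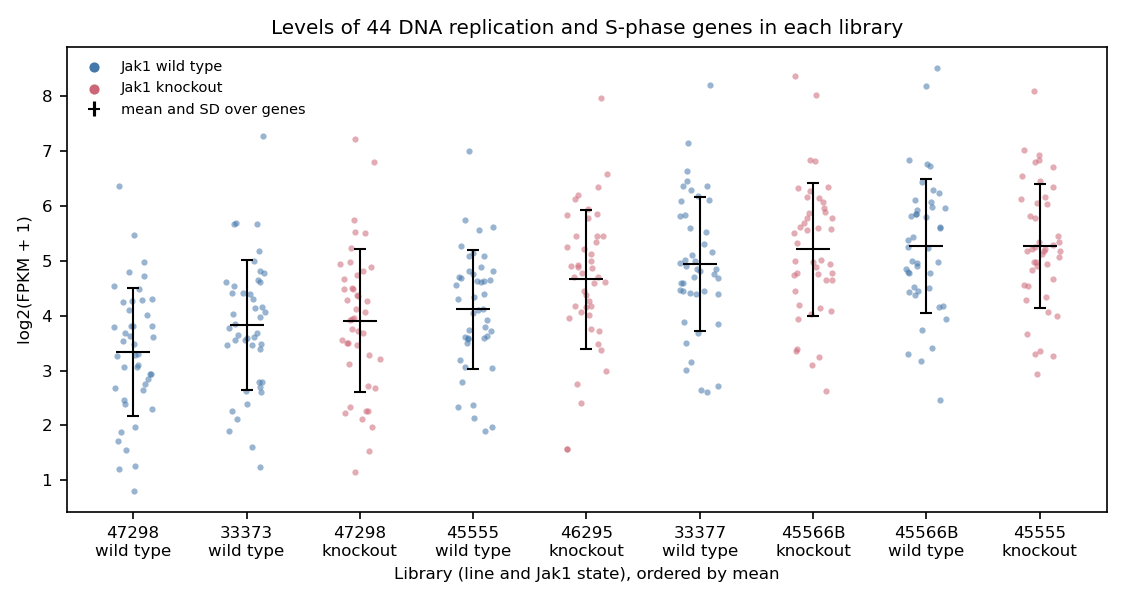
Level of the 44 replication genes in each library, as log2(FPKM + 1). Points are genes, colours the Jak1 state, and black bars the mean and SD over genes (1 library each, so the SD is between genes); the mean runs from 3.35 in 47298 wild type to 5.28 in 45555 knockout, and the states are interleaved.

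The extremes of this order were shared by most members. In 34 of the 44 the lowest library was 47298 wild type, in 7 it was 33373, and in no member was it either library of 45566B or of 45555. The highest was 45555 knockout in 18 members and 45566B wild type in another 18. Among all genes tested, 47298 wild type was the lowest library of 11.27% and 33373 of 8.149%. The highest was 45555 knockout in 16% of all genes and 45566B wild type in 12.72%. Between wild-type lines the level already spanned a wide range. All 44 members were higher in 45566B wild type than in 45555 wild type (median log2 difference 1.13), and 42 were lower in 47298 wild type than in 45555 wild type (median -0.79). Over all genes tested these medians were -0.004 and 0.004. Rrm2, the regulated subunit of ribonucleotide reductase, spanned the most, with 18.3 FPKM in 47298 wild type and 289 in 45566B wild type. E2f1 itself, the transcription factor of the group, varied least between wild-type lines, with 15.5 FPKM in 45555, 17.9 in 47298, 17.2 in 45566B, 15.3 in 33373 and 21.2 in 33377.

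**Figure D2:**
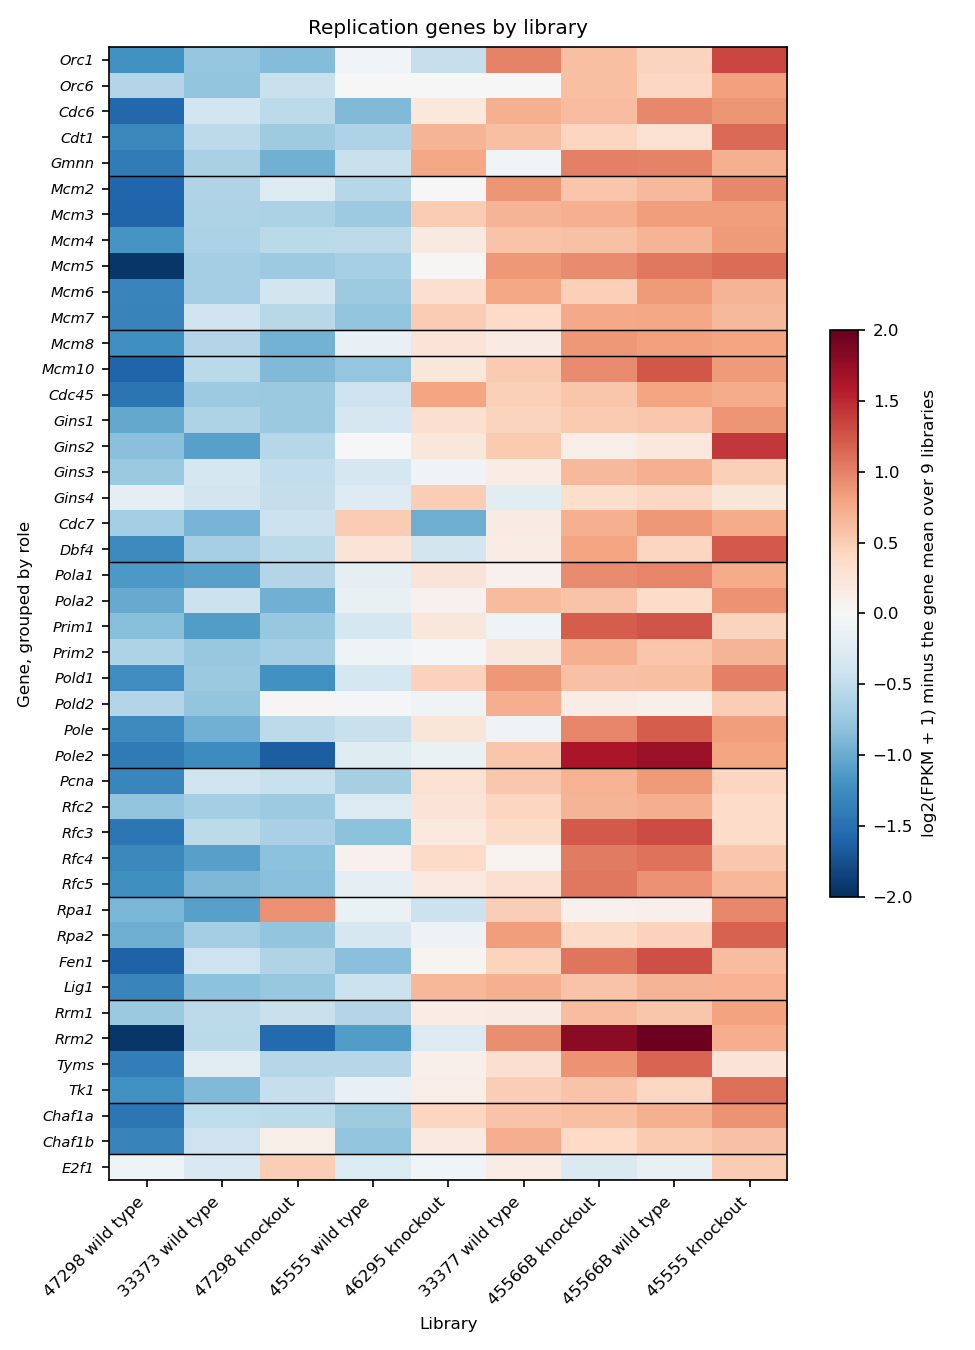
Heat map of log2(FPKM + 1) minus the gene's mean over the 9 libraries, for each of the 44 genes (rows, grouped by role, black lines between roles) in each library (columns, ordered by the mean of the group). Red is above and blue below the gene's mean. Most genes share the column order. Those standing off it include Rpa1 and E2f1 in 47298 knockout, Cdc7 in 46295 knockout, and Gins4 in 47298 wild type and 46295 knockout.

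Within lines, the knockout library of 45555 held more RNA of every one of the 44 genes, that of 47298 held more of 41, and that of 45566B held more of 12. Of all genes tested, 45.3%, 50.5% and 51.5% were higher in knockout in these lines. The median log2 difference, knockout minus wild type, was 1.17 in 45555 (2.26-fold), 0.56 in 47298 (1.48-fold) and -0.07 in 45566B (0.95-fold). Over all 12063 genes tested the medians were -0.03, 0.01 and 0.01. Folds here and below are 2 to the power of the difference in log2(FPKM + 1), which understates the fold of low genes. With 1 library per state, a difference within a line has no replicate check and no test.

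In 45555, 40 of the 44 were at least 1.5-fold higher in knockout, where 10.6% of all genes were, and none was 1.5-fold lower, where 15.6% were. The other 4 were Cdc7, Rfc4, Gins4 and Pold2, all higher by less. In 47298, 20 were at least 1.5-fold higher (17.3% of all genes) and none 1.5-fold lower (19% of all genes), and the 3 lower members were Gins4, Pole2 and Prim2. In 45566B none passed 1.5-fold upward (2.34% of all genes) or downward (3.93%). The spread of all genes differed between the lines as well. The 5th and 95th percentiles of all genes were -1.15 and 0.85 in 45555, -1.88 and 1.40 in 47298 and -0.49 and 0.41 in 45566B, and 32, 2 and 0 members lay above the upper value.

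Both 45555 and 47298 had the higher value in knockout for 41 of the 44, against 26.6% of all genes (3203 of 12063). Of these 41, 30 were lower in 45566B knockout. Of the 3203 genes, 1469 were, which is 12.2% of all genes. Higher in all 3 lines were 11 members, which is 25% against 14.3% of all genes. Without 45555, 11 members were higher in both remaining lines, against 24.55% of all genes, and without 47298, 12 were, against 25.59%. The 11 higher in all 3 lines were Orc1, Orc6, Cdt1, Gmnn, Mcm8, Dbf4, Pola2, Pold2, Rfc5, Rrm1 and Tk1, and without 47298 Prim2 joined them. The difference, knockout minus wild type, was larger in 45555 than in 47298 for 39 of 44, and the share of all genes for which it was larger was not counted. The exceptions were Cdc7, Pold2, Rfc4, Rpa1 and Chaf1b. The 47298 knockout library was below 45555 wild type in 29 of the 44 genes (median log2 difference -0.27, against -0.01 over all genes).

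**Figure D3:**
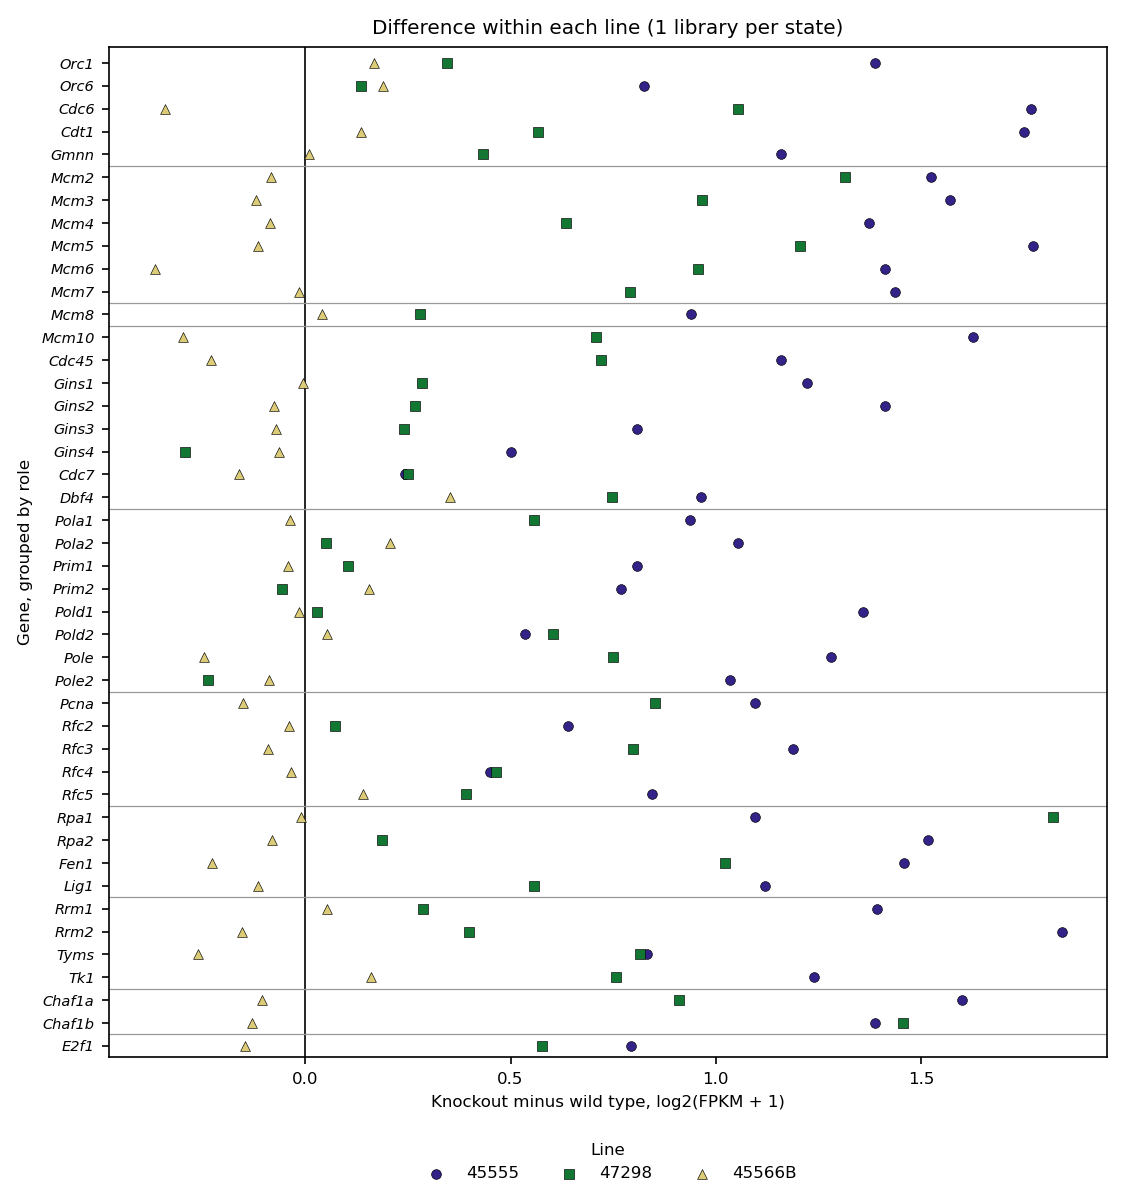
Knockout minus wild type in log2(FPKM + 1) for each of the 44 genes (rows, grouped by role), with 1 point per line (circle 45555, square 47298, triangle 45566B) and 1 library per state. The circles all lie above 0 (0.24 to 1.84), the squares run from -0.29 to 1.82 and the triangles stay between -0.37 and 0.35.

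Over the 3 lines no gene of the 12063 tested passed an adjusted p of 0.05 (limma, line as a block, 0% called), so none of the 44 did, and their adjusted p ran from 0.762 to 0.951. Jak1, the labelled target, was not called either (log2 fold change -0.52, SE 0.27, limma adjusted p = 0.762). At an unadjusted p under 0.05 there were 405 genes, 1.51% of those tested being higher in knockout and 1.85% lower. Among the members these were Dbf4 and Tk1, both higher (2 of 44), and no member lower. The fitted log2 fold change was above 0 in all 44, from 0.05 (Gins4) to 0.97 (Rpa1), and the share of all genes above 0 was not counted. Over the members its median was 0.55, against -0.01 over all genes. This median was 0.85 without 45566B and 0.25 without 45555, and 0.57 without 47298. The fold change over the 3 lines is thus an average over lines whose differences had unlike sizes and, for most members, unlike signs. Marker lists moved with the 47298 pair in particular, with luminal markers at 117.2 and 490.8 FPKM in its wild type and knockout, fibroblast markers at 7957 and 720.9, and adipocyte markers at 1345 and 56.01. The luminal sums of 47298 were mostly Krt8 (38.5 and 157 FPKM), Krt18 (52.7 and 250) and Krt7 (17.1 and 76.3). Of the 12 luminal markers, 10 were higher in its knockout, 4 of them by at least 1.5-fold. Krt19 was lower, at 5.97 and 0.307 FPKM, and Epcam (0.324 and 0.581) and Cdh1 (0.210 and 0.277) stayed under 1 FPKM. In 45555, luminal markers were at 10.57 and 12.68 FPKM, fibroblast markers at 7315 and 5074 and adipocyte markers at 555.5 and 405.7, while all 44 replication genes were higher there. The sum of the 7 basal and myoepithelial markers, 179.3 and 1296 FPKM in 45555 and 109.2 and 13.72 in 47298, was nearly all Acta2, at 178 and 1296 and at 108 and 11.8, while Krt14 stayed at 0.165 or less in these libraries. The part of these markers in the differences was not tested.

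Below, a pair of values for a line gives wild type first and knockout second, and fold changes over the 3 lines are log2 values from limma. Origin licensing was represented by 5 genes. All 5 were higher in knockout in 45555 (median log2 difference 1.39) and in 47298 (median 0.43), and 4 of 5 in 45566B (median 0.14). Cdt1, the loader of the MCM ring, stood in wild type at 11.05 FPKM in 45555, 6.62 in 47298, 21.8 in 45566B, 11.9 in 33373 and 27.3 in 33377, and in knockout at 39.6 in 45555, 10.3 in 47298, 24.1 in 45566B and 28.7 in 46295. The states overlapped, the highest values being those of 45555 and 46295 knockout, and the fold change over the 3 lines was 0.82 (SE 0.36, limma adjusted p = 0.762). Orc1 stood at 2.91, 0.757 and 4.51 FPKM in wild type of 45555, 47298 and 45566B and at 9.24, 1.23 and 5.19 in their knockouts, with 1.37 in 33373, 7.07 in 33377 and 1.95 in 46295. At these levels 47298 was close to the filter in both states. Cdc6, which brings CDT1 to the origin, had the largest log2 difference of these 5 genes in both 45555 and 47298, at 2.72 and 11.7 FPKM in 45555 and 1.31 and 3.79 in 47298. In 45566B it was lower in knockout, at 9.57 against 12.4 FPKM. Gmnn, the inhibitor of loading, was at 23.7 and 54.2 FPKM in 45555, 11.8 and 16.3 in 47298 and nearly level in 45566B, at 66.3 and 66.7.

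The 6 subunits of the MCM ring differed in 1 direction within each line. All 6 were at least 1.5-fold higher in knockout in 45555 (2.59-fold for Mcm4 to 3.42-fold for Mcm5) and in 47298 (1.55-fold for Mcm4 to 2.49-fold for Mcm2). In 45566B all 6 were lower, from 0.77-fold (Mcm6) to 0.99-fold (Mcm7). Their summed level was 173.4 and 504 FPKM in the states of 45555, wild type first, 99.45 and 196.9 in 47298 and 500.3 and 455.4 in 45566B, beside 186.2 in 33373, 454.7 in 33377 and 352.7 in 46295. Mcm2 stood in wild type at 24.02 FPKM in 45555, 11.3 in 47298, 57.0 in 45566B, 23.5 in 33373 and 67.8 in 33377, and in knockout at 71.0 in 45555, 29.7 in 47298, 53.8 in 45566B and 36.3 in 46295. Its highest and its lowest library were 45555 knockout and 47298 wild type, and the other 7 overlapped between the states. Mcm5, whose promoter is printed above, stood at 22.7, 8.77 and 77.1 FPKM in wild type of 45555, 47298 and 45566B and at 80.1, 21.5 and 71.1 in their knockouts. The fold change over the 3 lines was 0.92 for Mcm2 (SE 0.38), 0.95 for Mcm5 (SE 0.41) and 0.74 for Mcm7 (SE 0.33), each with a limma adjusted p of 0.762. Mcm7 overlaps Ap4m1 and Cops6 on the other strand and holds Mir25 and Mir93, and the sources used here do not say whether strand was kept. Mcm8, a paralog outside the ring that acts in recombination repair, was at 4.04 and 8.67 FPKM in 45555, 1.40 and 1.91 in 47298 and 8.93 and 9.21 in 45566B.

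Of 8 genes that activate the ring, 6 were at least 1.5-fold higher in 45555 (median log2 difference 1.06) and 3 in 47298 (median 0.28). In 47298 the log2 difference was 0.75 for Dbf4, 0.72 for Cdc45 and 0.71 for Mcm10, inside the range of the MCM subunits (0.64 to 1.32). It was 0.28 for Gins1, 0.27 for Gins2, 0.24 for Gins3 and -0.29 for Gins4, and the gap between these genes and the ring, in 1 pair of libraries, was not tested. Cdc45, the remaining partner, was at 5.73 and 10.1 FPKM in 47298, 12.9 and 29.97 in 45555 and 30.8 and 26.1 in 45566B. Gins1 was at 4.25 and 5.39 FPKM in 47298, 7.39 and 18.6 in 45555 and 14.4 in both states of 45566B. Gins4 stood in wild type at 25.2 FPKM in 45555, 26.7 in 47298, 40.8 in 45566B, 23.4 in 33373 and 26.2 in 33377, and in knockout at 36.1, 21.6, 39.0 and, in 46295, 42.9. Its states overlapped, and its highest libraries were 46295 knockout and 45566B wild type. Dbf4, the activator of CDC7, stood in wild type at 32.8 FPKM in 45555, 10.6 in 47298, 37.1 in 45566B, 16.7 in 33373 and 30.2 in 33377, and in knockout at 65.1 in 45555, 18.5 in 47298, 47.6 in 45566B and 21.0 in 46295. It was the member with the smallest p over the 3 lines, higher in knockout in 3 of 3 (log2 fold change 0.69, SE 0.19, limma adjusted p = 0.762), while its states overlapped across lines. Its kinase partner Cdc7 differed little, at 7.30 and 8.81 FPKM in 45555, 2.66 and 3.36 in 47298 and 9.68 and 8.54 in 45566B, and was lowest in 46295 at 1.98. Mcm10, which helps to open the helicase, was at 4.19 and 15.03 FPKM in 45555, 1.94 and 3.802 in 47298 and 19.9 and 15.999 in 45566B.

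The 8 polymerase and primase genes were higher in 45555 knockout, and nearly level as a group in 47298. In 45555 the median log2 difference was 0.99 and 7 of 8 were at least 1.5-fold higher, whereas in 47298 the median was 0.08 and 2 of 8 were. Pold2, the small subunit of the lagging-strand polymerase delta, was at 27.2 and 39.8 FPKM in 45555, 18.4 and 28.5 in 47298 and 30.3 and 31.4 in 45566B. Pold1, the catalytic subunit of the same enzyme, was at 8.20 and 22.6 FPKM in 45555 but at 3.94 and 4.03 in 47298 and 16.8 and 16.6 in 45566B. The 2 subunits of leading-strand polymerase epsilon also parted in 47298. Pole, the catalytic one, was at 2.91 and 5.58 FPKM there, and Pole2 at 4.55 and 3.71. In 45555 both were higher in knockout, at 5.92 and 15.8 FPKM for Pole and 11.5 and 24.5 for Pole2. Pola1, the catalytic subunit of polymerase alpha that extends primers, was at 11.2 and 22.4 FPKM in 45555, 5.29 and 8.25 in 47298 and 26.4 and 25.7 in 45566B. Its fold change over the 3 lines was 0.49 (SE 0.24), beside 0.40 (SE 0.18) for Pold2 and 0.60 (SE 0.35) for Pole, each with a limma adjusted p of 0.762. The primase genes Prim1 and Prim2 had differences of 0.81 and 0.77 in 45555 and of 0.10 and -0.06 in 47298.

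Pcna, the most abundant member, stood in wild type at 127 FPKM in 45555, 81.5 in 47298, 365 in 45566B, 153 in 33373 and 295 in 33377, and in knockout at 274 in 45555, 148 in 47298, 328 in 45566B and 251 in 46295. The knockout values lay inside the range of the wild-type values. Of its loader, replication factor C, Rfc3 was at 16.2 and 38.2 FPKM in 45555, 10.2 and 18.4 in 47298 and 74.9 and 70.3 in 45566B, and Rfc5 was at 19.3 and 35.4, 8.81 and 11.9, and 42.1 and 46.5. Rfc2 and Rfc4, in the same pentamer, had the smallest differences of this role in 45555, at 0.64 and 0.45, and were at 0.07 and 0.47 in 47298. The fold change over the 3 lines was 0.60 for Pcna (SE 0.31), 0.63 for Rfc3 (SE 0.30) and 0.46 for Rfc5 (SE 0.20), each with a limma adjusted p of 0.762. Rfc2, Rfc4 and Rfc5 overlap Lat2, Eif4a2 and Wsb2 on the other strand.

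Rpa1, the large subunit of the single-strand binding protein RPA, had the largest difference of all members in 47298. It stood in wild type at 52.4 FPKM in 45555, 30.4 in 47298, 62.2 in 45566B, 26.6 in 33373 and 81.9 in 33377, and in knockout at 113 in 45555, 110 in 47298, 61.7 in 45566B and 42.8 in 46295. That difference was 3.54-fold, and 47298 knockout, low for most of the group, was its highest library after 45555 knockout. The partner subunit Rpa2 was at 7.55 and 8.74 FPKM in the same line, against 12.4 and 37.2 in 45555 and 22.1 and 20.9 in 45566B. Rpa3, the small subunit and not a member, was looked at after these values were seen, and was at 38.4 and 19.98 FPKM in 47298, 44.7 and 34.8 in 45555 and 44.3 and 40.4 in 45566B. The 3 subunits of 1 heterotrimer thus differed by 1.82, 0.19 and -0.91 in log2 in 47298. Over the 3 lines Rpa1 had a fold change of 0.97 (SE 0.40, limma adjusted p = 0.762). The flap nuclease Fen1, which trims Okazaki fragments, was at 12.2 and 35.2 FPKM in 45555, 6.69 and 14.6 in 47298 and 56.8 and 48.4 in 45566B. Lig1, which seals them, was at 24.9 and 55.2, 12.9 and 19.5, and 54.8 and 50.5. Fen1 overlaps Tmem258, which reached 239 FPKM, on the other strand.

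All 4 genes of nucleotide supply were higher in knockout in 45555 (median log2 difference 1.32) and 47298 (median 0.58). Tk1, the S-phase thymidine kinase, stood in wild type at 46.2 FPKM in 45555, 21.4 in 47298, 68.3 in 45566B, 27.3 in 33373 and 72.1 in 33377, and in knockout at 110 in 45555, 36.9 in 47298, 76.4 in 45566B and 55.9 in 46295. It was higher in knockout in 3 of 3 lines, with a fold change of 0.72 (SE 0.26, limma adjusted p = 0.762), and the states overlapped across lines. The 2 subunits of ribonucleotide reductase had their largest difference in 45555, at 48.3 and 128 FPKM for Rrm1 and 33.2 and 122 for Rrm2. In 47298 Rrm1 was at 43.3 and 52.97 FPKM and Rrm2 at 18.3 and 24.4, and in 45566B at 108 and 112 and at 289 and 260. Tyms, thymidylate synthase, was at 10.3 and 19.2 FPKM in 45555, 5.46 and 10.4 in 47298 and 36.8 and 30.6 in 45566B. Tyms-ps, a pseudogene of Tyms with a row of its own, held at most 0.103 FPKM, and whether the 2 share reads was not tested. Tk1 overlaps Afmid on the other strand.

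Chaf1a and Chaf1b, subunits of the complex that places histones on new DNA, both differed by more than 1.5-fold in 45555 and 47298. Chaf1a was at 10.9 and 35.2 FPKM in 45555, 6.18 and 12.5 in 47298 and 30.7 and 28.5 in 45566B. Chaf1b was at 11.1 and 30.7, 7.33 and 21.8, and 29.2 and 26.6. Their fold changes over the 3 lines were 0.80 (SE 0.37) and 0.90 (SE 0.39), each with a limma adjusted p of 0.762. Chaf1a overlaps Ubxn6, which reached 39.45 FPKM, on the other strand. Among the roles above, Orc6 overlaps Vps35 (up to 119.5 FPKM) and Gins2 overlaps Gse1 (up to 8.315) in the same way. E2f1 had knockout values of 27.6 FPKM in 45555, 27.2 in 47298, 15.4 in 45566B and 18.3 in 46295, and its wild-type values, given above, overlapped them (fold change 0.41, SE 0.24, limma adjusted p = 0.762).

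Whether 45566B differed from the other 2 lines was tested with an interaction term, which has 1 residual degree of freedom before moderation. No gene of 12063 passed an adjusted p of 0.05 (limma, 0% called), with 254 at an unadjusted p under 0.05, and the members had an adjusted p of 0.9995. All 44 estimates were above 0, meaning a larger knockout difference in 45555 and 47298 than in 45566B. Their median was 0.88, against -0.01 over all genes, and the share of all genes above 0 was not counted. At an unadjusted p under 0.05 there were 5 members (1.13% of all genes in this direction). The only residual spread in this fit is the gap between the differences of 45555 and 47298, since 45566B gives 1 pair, so a small p favours genes whose differences in those 2 lines lie close together, and the count is a description only. The 5 were Mcm2 (1.504, SE 0.34), Mcm5 (1.61, SE 0.44), Mcm6 (1.55, SE 0.41), Fen1 (1.47, SE 0.41) and Chaf1b (1.55, SE 0.34). The members' median was 0.55 without 45555 and 1.23 without 47298, both without a test. The wild-type level from which each knockout was measured also differed, at a median of 36.95 FPKM over the members in 45566B, 17.7 in 45555 and 9.49 in 47298, and this was not tested as a part of the difference.

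The other genes of the pathway, from lists of textbook genes, are given as counts. None of their genes passed the adjusted threshold over the 3 lines (limma). The shares of all genes to set beside these counts are 26.6% higher in both 45555 and 47298, 51.5% higher in 45566B, and 1.51% higher at an unadjusted p under 0.05. Of 29 further genes of the replication machinery, 20 were higher in knockout in both 45555 and 47298, with medians of 0.73, 0.26 and -0.09 in 45555, 47298 and 45566B. The 2 of smallest p were Chtf18, a loader subunit (0.76, SE 0.28), and Topbp1, an activator of the helicase and of ATR (0.72, SE 0.29). Of 25 other S-phase and E2F-driven genes, 21 were higher in both, with medians of 1.17, 0.64 and -0.06, close to those of the 44. Ccna2, the S-phase cyclin, was at 42.5 and 107 FPKM in 45555, 16.8 and 26.8 in 47298 and 77.8 and 96.3 in 45566B, and Hells, a chromatin remodeller, had a fold change of 0.88 (SE 0.33). Mitotic genes were mostly higher in 45566B knockout too; their difference from the 44 was not tested. Of 22, 20 were higher in knockout in 45555 and 47298 and 21 in 45566B, with medians of 1.00, 0.68 and 0.34, and 13 had an unadjusted p under 0.05 over the 3 lines. Kif20a, a kinesin of cell division, was at 37.2 and 74.96 FPKM in 45555, 18.9 and 32.1 in 47298 and 46.6 and 67.7 in 45566B, and Ccnb2, a mitotic cyclin, was at 41.2 and 69.9 FPKM in 45566B. Mki67, the proliferation marker, was at 33.6 and 60.1 FPKM in 45555, 12.9 and 23.6 in 47298 and 73.5 and 73.3 in 45566B.

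**Figure D4:**
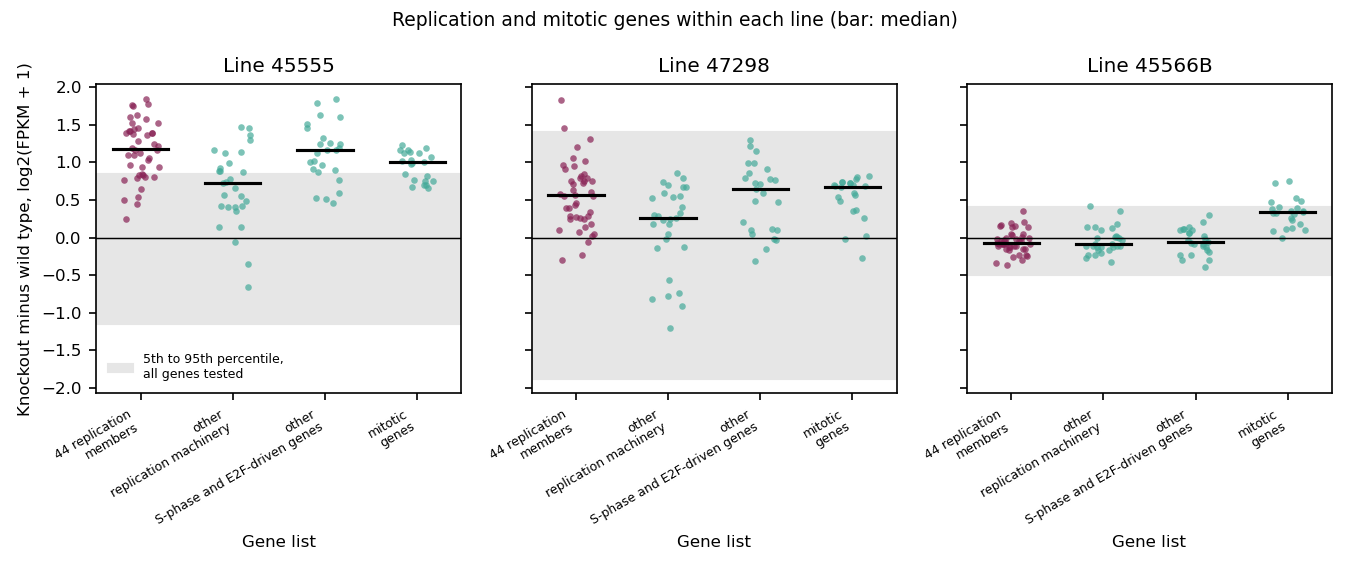
Knockout minus wild type in log2(FPKM + 1) within each line (panels) for the 44 replication genes and 3 lists of related genes (points are genes, bars medians, the grey band the 5th to 95th percentile of all genes tested). The medians of the 44 are 1.17, 0.56 and -0.07 in 45555, 47298 and 45566B, and those of the mitotic genes 1.00, 0.68 and 0.34.

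Regulators upstream of the group were also counted. Of 14 RB and E2F regulators, 6 were higher in both 45555 and 47298, with medians of 0.61, 0.0067 and -0.0019 in the 3 lines. Mybl2, an E2F-driven factor of the late cell cycle, was at 4.48 and 19.0 FPKM in 45555, 1.48 and 2.90 in 47298 and 14.6 in both states of 45566B, and Tfdp1, the dimer partner of E2F, had a fold change of 0.44 (SE 0.22). Of 12 D cyclins, their kinases and inhibitors, 3 were higher in both, a share close to the 26.6% of all genes. Ccnd1, cyclin D1, was at 105 and 329 FPKM in 45555, 166 and 933 in 47298 and 411 and 485 in 45566B, beside 412 in 33373, 476 in 33377 and 241 in 46295. Its fold change was 1.45 (SE 0.49, limma adjusted p = 0.762). The CDK inhibitor Cdkn1a was at 114 and 118 FPKM in 45555, 54.8 and 44.4 in 47298 and 114 and 150 in 45566B. Cdkn1c, another inhibitor, was at 6.12 and 0.026 FPKM in 47298, 1.23 and 0.554 in 45555 and at 0 in both libraries of 45566B. Chosen after their values were seen, Cdkn2a (which encodes inhibitors of CDK4 and of MDM2) was at 33.3 and 0.930 FPKM in 47298 and listed at 0 in all 4 libraries of 45555 and 45566B, and Ccnd2 was at 52.0 and 5.87 in 47298 against 38.9 and 46.6 in 45555.

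Across lines, the 2 knockout libraries 45566B and 46295 were set against the 3 wild-type libraries 45566B, 33373 and 33377, which shares the 45566B libraries with the comparison above. The 2 libraries of 45566B come from 1 line and sit in opposite groups, and the fit treats all 5 libraries as independent. No gene of 11838 passed an adjusted p of 0.05 (limma, 0% called, smallest 0.0749), 1.82% had an unadjusted p under 0.05, and no member was among them (adjusted p 0.999 or above). In no member were both knockout libraries above all 3 wild-type ones (7.67% of all genes) or below them (6.43%). Of the 44, 36 had a positive fold change, and the share of all genes with one was not counted. The fold changes ran from -0.17 (Cdc7) to 0.80 (Gmnn, SE 0.52) over the group. The members' median was 0.29, against 0.02 over all genes. Gmnn was at 66.7 FPKM in 45566B knockout and 56.8 in 46295, and at 66.3, 20.4 and 31.4 in the wild-type libraries of 45566B, 33373 and 33377. The sign of the members' median rested on 1 library, being -0.15 without 33373, and it was -0.27 without 33373 and 33377. It was 0.53 without 45566B wild type.

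That dependence on 33373 goes with a large gap between the 2 wild-type lines present in 1 state only. All 44 members were higher in 33377 than in 33373, with a median log2 difference of 1.10 (2.15-fold), and 40 were at least 1.5-fold higher, where 18.6% of all genes were. The difference ran from 0.15 for Gins4 to 1.82 for Pole2, at 5.19 and 20.8 FPKM. These lines have the same labelled state, and the median is close in size to that between the states of 45555. Luminal markers summed to 3941 FPKM in 33373 and 168.1 in 33377, and fibroblast markers to 462.3 and 3996, and their part in the gap was not tested. The 2 knockout lines differed as well. In 46295, 38 of the 44 were lower than in 45566B knockout (median -0.49, against 0 over all genes), most of all Rrm2, at 60.3 against 260 FPKM, while Cdt1 was higher, at 28.7 against 24.1. For 33 members the 46295 value lay between those of 33373 and 33377, and the share of all genes for which it did was not counted. The headers of 33373 and 33377 lack a suffix that the other 7 carry, and the sources used here do not say whether all 9 were processed together.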

How the data were processed

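The authors deposited FPKM per gene symbol in 2 tables of 24346 genes, the smaller holding 4 of the 9 libraries with identical values. Per the submitters' processing notes, cutadapt, TopHat2 2.1, Cufflinks 2.2 and Cuffnorm were used on build mm10; the sources used here do not give the scaling option, the annotation or the strand. Per the labels' protocols, cDNA was primed with oligo-dT and libraries came from a TruSeq RNA kit. The 4 rows whose names, turned into dates by a spreadsheet, occurred more than once were left out.

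Values were tested as log2(FPKM + 1) with limma 3.58.1 in R 4.3.3, two-sided, with a mean-variance trend and Benjamini-Hochberg adjustment over every gene whose mean FPKM reached 1, at a threshold of 0.05. The script was tested on simulated data. The comparison over 45555, 47298 and 45566B had line as a block, the pairing coming from the shared line in the labels (correlations of deviations 0.70, 0.399 and 0.804). The labels name no separate cultures, so p-values measure only the spread between these libraries. Depth is known only relative to 45566B wild type. Positions of promoters come from RefSeq, and overlaps from GENCODE vM21 (GRCm38). Picked for closer description were, for each role, the 3 members with the smallest p over the 3 lines, and the members with the highest and lowest mean, with 2 genes of each other list. The members and lists were chosen with earlier results of these data known. Alternatives were another pseudocount, other filters, median-ratio scaling, no variance trend, no block and leaving out libraries.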

Additional observations from a re-analysis of the deposited data

Results flagged for a closer look

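In 4 of 90 sets of values examined (each of the 44 members and Jak1, in the 5 wild-type and in the 4 knockout libraries), 1 library stood far from the rest of its group, where chance gives about 1 in 20. Among the 5 wild-type libraries, 45566B was far above the others for Gins4 (40.8 FPKM), Prim1 (59.9 FPKM) and Pole (20.9 FPKM). Among the 4 knockout libraries, 47298 was far below the others for Lig1 (19.5 FPKM, against 55.2, 50.5 and 53.9 in 45555, 45566B and 46295).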

How the results depend on the processing

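The fold changes over the 3 lines of all 25 members picked for closer description kept their direction and stayed short of the threshold. This held under pseudocount 0.1, no filter, median-ratio scaling, no variance trend, no replicate block and each line left out. It also held for the 24 that passed a filter of 5 FPKM. Without the line as a paired term (no replicate block) no gene was called (0) and the members' median was 0.5453. Leaving out 1 line at a time, the number of genes called over the 3 lines ran from 0 to 6 (6 without 47298), none of them a member, the members' median from 0.2485 to 0.8461, and the members higher in every remaining line from 11 (without 45555, against 24.55% of all genes) to 41 (without 45566B, against 26.55%). At 2-fold, 6 members of 47298 were higher in knockout (8.489% of all genes), in place of 20 at 1.5-fold, and 29 of 45555 (3.2% of all genes), in place of 40. Across lines, pseudocount 0.1 gave 4 genes called. The members' median there ran from -0.1468 (without 33373) to 0.5282 (without 45566B wild type) with 1 library left out, and was -0.2655 without 33373 and 33377; the cause was not tested. Alternatives for the interaction median and for the count of members higher in both 45555 and 47298 were added after the data were seen. Depth limits the lowest members most, such as Orc1 in 47298.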
